A study of Mus musculus with 20 samples.

Results

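Writer loss was set against reader loss in the m6A maps of chromatin-associated RNA from C57BL/6 mouse embryonic stem cells. The samples were 4 immunoprecipitated libraries labelled as Mettl3 knockout (KO), 2 of the line KO1 and 2 of the line KO2, and they were set against 2 libraries with a conditional knockout of Ythdc1 (cKO). These 6 libraries are part of a series of 20 samples, of which 10 are immunoprecipitations with a peak list each and 10 are inputs that were not analysed here. The other 4 immunoprecipitations, 2 Mettl3 controls and 2 Ythdc1 controls, served to describe the regions found. All cells were labelled as the same cell type and strain, and were grown with LIF, CHIR99021 and PD0325901, which hold stem cells in the naive state. The labels do not say how the conditional deletion was induced, or whether each line was 1 clone. The Mettl3 KO and the Ythdc1 cKO have separate controls, so the difference between the genotypes and a difference between the parental lines cannot be told apart in a direct comparison of the lists.

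N6-methyladenosine (m6A) is placed on nascent RNA in the nucleus by a complex whose catalytic subunit is METTL3, mostly within the sequence context called DRACH (D is A, G or T, R is A or G, and H is A, C or T), of which GGAC is the core most often used. YTHDC1 is the nuclear protein that binds the methylated base, and it is known for roles in splicing, RNA export and the turnover of chromatin-bound RNA such as transcripts of retrotransposons in stem cells. METTL3 places most of the mark on messenger RNA and other enzymes place some, while without the reader the mark can still be placed but is not read by this protein. An m6A immunoprecipitation reports where fragments were enriched by the antibody, so a peak depends on the mark, on the amount of the transcript and on fragments the antibody binds without it.

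Peaks of the 6 libraries were merged on each strand wherever they overlapped by at least 1 bp, which gave 76634 regions. A region was called KO-specific when all 4 Mettl3 KO libraries and neither cKO library held a peak in it. It was called cKO-specific when both cKO libraries and none of the 4 Mettl3 KO libraries did. By this rule 3932 regions (5.13% of the merged regions) were KO-specific and 10518 (13.7%) were cKO-specific, while 18718 (24.4%) had a peak in all 6 libraries. Just outside the rule lay 3238 regions with peaks in 3 of the 4 Mettl3 KO libraries and no cKO library, and 1845 with peaks in all 4 Mettl3 KO libraries and 1 cKO library. On the other side, 2584 regions had peaks in 1 Mettl3 KO library and both cKO libraries. A KO-specific region had to be called in 4 lists and a cKO-specific region in 2, so the sizes of the sets are not comparable as such. Set against the cKO with no demand on the other line, the KO1 libraries gave 8733 KO-specific regions and the KO2 libraries 8924.

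The sequences under the strongest exonic regions of each set are shown as examples. Strength is the lowest of a region's within-list percentiles of fold enrichment over the libraries that define its set, from 0 to 100. Each sequence is the 101 nt of the GENCODE M21 transcript centred on the highest summit, 5′ to 3′, on the mm10 build, and runs of 12 or more purines (A or G) are in capitals. The first 3 are KO-specific, from coding exons of Arhgap30 and Adgrb1 and the exon of the processed pseudogene Gm7468.
Arhgap30 chr1:171408089-171408189 (+): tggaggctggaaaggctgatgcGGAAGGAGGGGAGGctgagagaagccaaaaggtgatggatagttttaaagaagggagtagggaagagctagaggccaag
Gm7468 chr6:142970744-142970844 (-): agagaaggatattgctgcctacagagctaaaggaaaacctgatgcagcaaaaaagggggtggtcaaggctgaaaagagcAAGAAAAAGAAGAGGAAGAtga
Adgrb1 chr15:74587137-74587237 (+): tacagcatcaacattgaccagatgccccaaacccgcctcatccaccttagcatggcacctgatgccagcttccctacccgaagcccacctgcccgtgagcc
The next 3 are cKO-specific, from coding exons of Ccdc184 and Ccser1 and an exon of the long intergenic non-coding RNA Gm43549. The Ccser1 sequence crosses a splice junction.
Ccdc184 chr15:98168586-98168686 (+): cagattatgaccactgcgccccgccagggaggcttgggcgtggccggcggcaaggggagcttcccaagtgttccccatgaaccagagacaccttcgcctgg
Ccser1 chr6:61312131-61313712 (+): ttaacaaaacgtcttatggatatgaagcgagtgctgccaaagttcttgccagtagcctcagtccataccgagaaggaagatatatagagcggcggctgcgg
Gm43549 chr3:55578791-55578891 (-): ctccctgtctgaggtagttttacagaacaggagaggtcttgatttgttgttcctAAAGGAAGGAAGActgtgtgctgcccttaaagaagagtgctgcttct
The Arhgap30 sequence holds no DRACH match at all, and 77.2% of its bases are purines. Gm7468 holds 1 DRACH match and a purine run of 19 nt, and Adgrb1 holds 2 matches and no run. Ccdc184 holds 3 DRACH matches, Ccser1 1 and Gm43549 2, and of these only Gm43549 has a run, of 13 nt. None of the 6 windows holds GGAC. Gm7468 is a processed pseudogene, so its reads may belong to near-identical copies elsewhere.

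The label of the cells was checked against markers. Of 10 embryonic stem cell markers, 9 had a region in the 6 libraries and 8 a region in all 6, among them Pou5f1, Sox2, Nanog, Esrrb and Klf4, and Dppa5a had none. Of 10 fibroblast markers, 6 had a region and 4 a region in all 6, namely Col5a1, Fn1, Pdgfrb and Vim. Col1a2, Col3a1, Col5a2 and Thy1 had none. Of all 13467 genes with a region, 7679 had a region in all 6. A peak list does not give the amount of a transcript, so these counts do not settle the cell type. The labels do not say that replicates are separate cultures, so p-values here reflect only how much these libraries vary, possibly for technical reasons. Mettl3 had 1 region, in a coding exon (minus strand, 52299754 to 52300096 on chromosome 14). KO1 had no peak in it, KO2 had 3.63-fold and 2.65-fold, cKO replicate 1 had 4.24-fold, and the 4 controls had 3.44-fold to 6.97-fold. The labels do not say which part of the gene was altered, so this peak does not check the label of KO2, and no list measures the protein. Ythdc1 had 6 regions with peaks in all 6 libraries, and also 1 KO-specific region, in an intron (chromosome 5, 86819945 to 86820103, plus strand). That intron region had 2.59-fold, 2.59-fold, 3.47-fold and 3.06-fold enrichment in the KO1 and KO2 libraries, no peak in the cKO, none in the Mettl3 controls, and 3.04-fold and 3.36-fold in the Ythdc1 controls.

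The Mettl3 KO libraries were richer in intron peaks and poorer in peaks between genes than the cKO libraries. Intergenic summits made up 9.13% and 8.997% of the peaks in KO1, 13.8% and 13.0% in KO2, and 21.6% and 21.03% in the cKO. The means were 11.2% ± 2.53 (SD, n = 4) in the Mettl3 KO and 21.3% ± 0.427 (SD, n = 2) in the cKO, a difference of -10.1 percentage points, and the groups did not overlap. Intron summits made up 50.1% of the peaks in each KO1 library, 39.4% in each KO2 library, and 31.5% and 31.9% in the cKO, again without overlap. In the controls intergenic summits made up 15.7% and 15.8% of the peaks of the Mettl3 line and 10.3% and 10.1% of those of the Ythdc1 line. The intergenic share was thus lower in the Mettl3 KO and higher in the cKO than in the controls of each, and the larger step lay on the cKO side. Intron summits made up 38.2% of the peaks in each Mettl3 control, close to KO2, and 35.1% and 34.1% in the Ythdc1 controls. Antisense summits, which lie within a gene on the opposite strand, averaged 6.26% ± 1.63 (SD, n = 4) in the Mettl3 KO and 9.15% ± 0.0217 (SD, n = 2) in the cKO. Coding exon shares were close, at 20.9% ± 0.869 (SD, n = 4) in the Mettl3 KO and 20.5% ± 0.134 (SD, n = 2) in the cKO.

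These class shares were tested with a two-sided exact permutation test over the 15 arrangements of 4 and 2 libraries, whose smallest possible p is 0.0667, so no p under 0.05 was possible. The intergenic difference had an exact permutation p of 0.0667 and the intron and antisense differences 0.133, with 0.24 for each after Benjamini-Hochberg adjustment over 9 classes. The 2 libraries of a line lay close together and the lines lay apart, so the 4 Mettl3 KO libraries are not 4 independent replicates. The Mettl3 KO lists held 40959 to 44496 peaks and the cKO lists 45468 and 45599, against 45292 and 46735 in the Mettl3 controls and 43651 and 41941 in the Ythdc1 controls. The Mettl3 KO lists covered 15.997 Mb ± 0.704 (SD, n = 4) and the cKO lists 20.5 Mb ± 0.0319 (SD, n = 2; exact permutation p = 0.0667). The most common background behind the peak p-values of the plus strand, a relative measure of depth, was 14.92 to 16.49 reads in the Mettl3 KO and 19.27 to 20.03 reads in the cKO. A deeper library can show weaker peaks, and the part of depth in these differences was not tested.

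**Figure D1:**
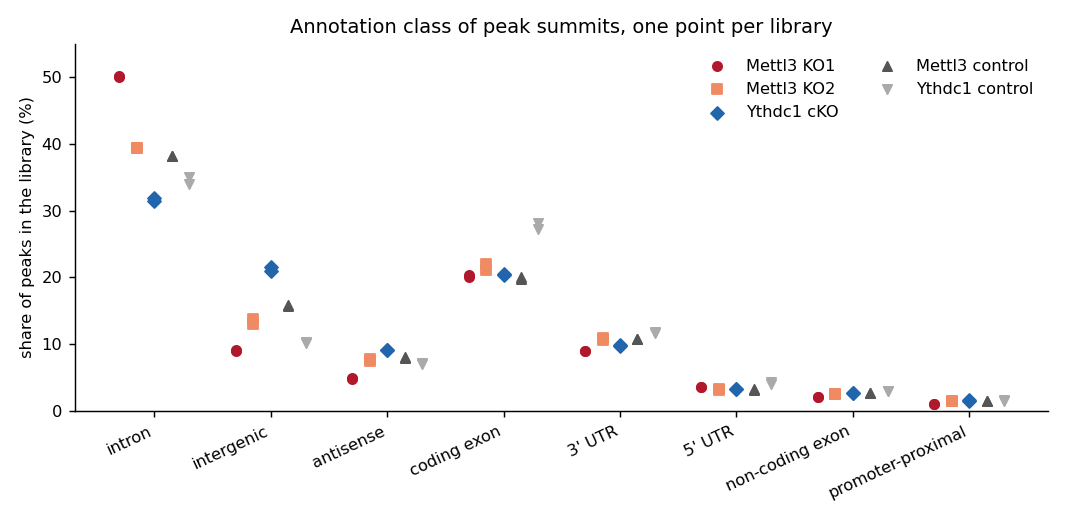
Share of each library's peaks (percent, y axis) whose summit falls in each annotation class (x axis), with 1 point per library for KO1, KO2, cKO and both control groups. In the intergenic class the 4 Mettl3 KO libraries lie between 8.997% and 13.8% and the cKO libraries at 21.6% and 21.03%.

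The region sets differed in class more than the whole lists did. The rule itself favours this, because it leaves out the regions that both groups share. Introns held 2683 of the 3932 KO-specific regions, or 68.2% (Wilson 95% interval 66.8 to 69.7), and 2347 of the 10518 cKO-specific regions, or 22.3% (21.5 to 23.1). Intergenic regions were 12.3% (11.3 to 13.3) of the KO-specific and 44.1% (43.1 to 45.04) of the cKO-specific set. Antisense regions were 5.82% of the KO-specific and 15.1% of the cKO-specific set. Coding exons held 5.98% of the KO-specific and 8.22% of the cKO-specific regions, and 29.3% of the regions found in all 6 libraries. Intervals here and below cover counting error only. Regions are not replicates of a genotype, so no test was made between the sets.

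Turned round, the sets took unequal shares of each class. Of all 14038 intergenic regions, 3.43% were KO-specific and 33.0% cKO-specific. Of the antisense regions 3.36% were KO-specific and 23.3% cKO-specific, and of the promoter-proximal regions 4.62% and 17.7%. Of the 32791 intron regions, 8.18% were KO-specific and 7.16% cKO-specific. Introns were the only class of the 9 in which the KO-specific share was the higher. This order depends on the unequal demands of the rule, 4 lists against 2. With the KO1 libraries alone introns held 74.9% of the KO-specific regions and with the KO2 libraries alone 50.2%.

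**Figure D2:**
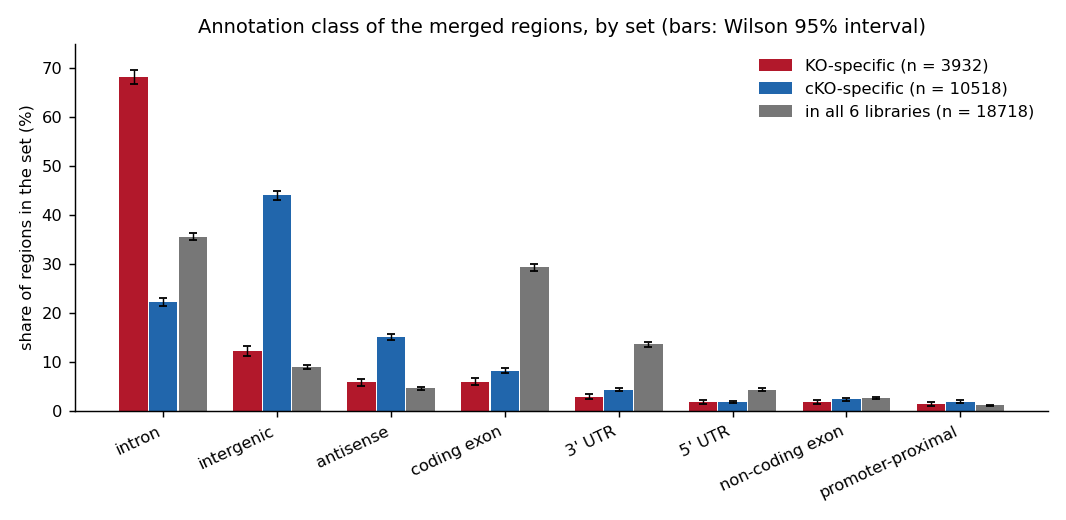
Share of the KO-specific, cKO-specific and shared regions (percent, y axis) in each annotation class (x axis), with Wilson 95% intervals. The KO-specific bar is tallest in introns, at 68.2%, and the cKO-specific bar between genes, at 44.1%.

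The intergenic regions of the sets lay in different places. Of the KO-specific intergenic regions 200 of 482, or 41.5% (Wilson 95% interval 37.2 to 45.9), lay within 10 kb past the end of a gene on the same strand. Of the cKO-specific intergenic regions 447 of 4637 did, or 9.64% (8.82 to 10.5), and of those in all 6 libraries 39.3%. The median distance past the nearest gene end upstream was 17.2 kb for KO-specific and 95.7 kb for cKO-specific regions. Counted over all intergenic peaks of a library, the share within 10 kb past a gene end was 42.2% and 41.7% in KO1, 32.004% and 33.2% in KO2, and 18.9% and 18.8% in the cKO. The groups did not overlap (difference 18.4 percentage points, exact permutation p = 0.0667, the smallest possible). The Mettl3 controls stood at 31.1% and 30.1% and the Ythdc1 controls at 36.2% in each library, so the cKO was the lowest of the 5 groups. This measure and the next were chosen after the sets had been seen.

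The intron regions also differed in their hosts. Genes over 200 kb hosted 20.6% of the KO-specific and 39.2% of the cKO-specific intron regions, with a median host length of 86.0 kb and 142 kb. Over all intron peaks, genes over 200 kb held 21.9% ± 0.819 (SD, n = 4) in the Mettl3 KO and 26.9% ± 0.0809 (SD, n = 2) in the cKO, without overlap (exact permutation p = 0.0667). The Mettl3 controls stood at 24.6% each and the Ythdc1 controls at 18.4% and 18.2%.

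Specific regions came in runs along the genome more often in the cKO. Specific regions of 1 set and strand were chained where no more than 10 kb lay between them. Chains of 3 or more held 207 KO-specific regions, or 5.26%, and 2842 cKO-specific regions, or 27.0%. The cKO-specific set holds more regions, and the part of its size in this difference was not tested. The KO-specific chain with the most regions had 7 over 19.8 kb around Gm15446 (chromosome 5, 109930297 to 109950055, plus strand), and each of the 7 also had peaks in both Mettl3 controls. The cKO-specific chain with the most regions had 23 over 37.8 kb on the plus strand of chromosome 6 (47740345 to 47778175), between Ezh2 and Pdia4, with no annotated gene on that strand. None of these 23 had a peak in any of the 4 control libraries. Whether the reads of these 23 regions map there alone, or to repeated copies, is not known from the lists. Upstream on the same strand lay 1 of the 3 strongest intergenic cKO-specific regions (47682764 to 47683027), with 17.7-fold and 18.7-fold enrichment in the cKO and no peak in any other library.

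The controls showed how the sets relate to the lists of unaltered cells. The KO-specific regions had a peak in 71.2% and 72.3% of cases in the Mettl3 controls and in 32.4% and 28.9% in the Ythdc1 controls. The cKO-specific regions had a peak in 25.3% and 27.7% of cases in the Mettl3 controls and in 29.0% and 27.8% in the Ythdc1 controls. Over all merged regions the shares were 52.0% and 53.4% in the Mettl3 controls and 47.5% and 45.8% in the Ythdc1 controls, and of the regions in all 6 libraries 89.8% to 97.6% had a peak in a given control. Peaks in both Mettl3 controls and no Ythdc1 control stood at 36.5% of the KO-specific and 6.42% of the cKO-specific regions. No control library had a peak in 11.3% (Wilson 95% interval 10.3 to 12.3) of the KO-specific and 53.0% (52.1 to 54.0) of the cKO-specific regions, against 31.1% of all merged regions. Of the 5578 cKO-specific regions without a control peak, 53.5% were intergenic. All 4 controls had a peak in 15.3% of the KO-specific and 10.5% of the cKO-specific regions. Both Mettl3 controls had a peak in 61.0% of the KO-specific regions, but in 40.4% with the KO1 libraries alone and in 39.7% with the KO2 libraries alone. The 1436 regions shared with both Mettl3 controls and no Ythdc1 control differ from the cKO in line as well as in genotype.

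**Figure D3:**
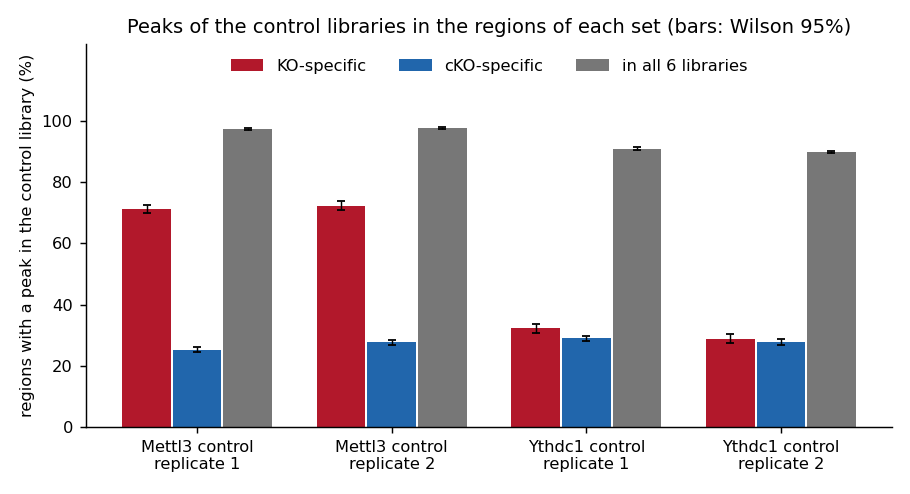
Share of the regions of each set (percent, y axis) that overlap a peak of each control library (x axis), with Wilson 95% intervals. KO-specific regions reach 71.2% and 72.3% in the Mettl3 controls and 32.4% and 28.9% in the Ythdc1 controls, while cKO-specific regions stay between 25.3% and 29.0% in all 4.

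Exonic summits of the sets also differed in sequence. GGAC stood within 50 nt of 189 of 486 KO-specific exonic summits, or 38.9% (Wilson 95% interval 34.7 to 43.3), and of 888 of 1748 cKO-specific summits, or 50.8% (48.5 to 53.1). The share was 51.2% for regions in all 6 libraries, 48.2% for all exonic regions of the same window length, and 29.8% and 32.005% in KO-specific and cKO-specific windows shifted by 1 kb. The search read the sense strand of the transcript. Within coding exons alone the shares were 40.9% of KO-specific and 54.2% of cKO-specific summits, within 3' UTRs 35.7% and 45.9%, and within non-coding exons 23.5% and 47.8%. In 5' UTRs they were 52.9% (36 of 68) and 50.8% (93 of 183), in the other order. DRACH stood within 50 nt of 85.4% (Wilson 95% interval 82.0 to 88.3) of KO-specific and 91.2% (89.8 to 92.4) of cKO-specific summits, and in 88.8% and 86.8% of their shifted windows. The KO-specific summits were therefore not above their shifted windows in DRACH, though they were in GGAC. Over whole libraries the difference was small, at 49.0% ± 0.541 (SD, n = 4) in the Mettl3 KO and 50.1% ± 0.156 (SD, n = 2) in the cKO, without overlap (exact permutation p = 0.133). The Mettl3 controls stood at 51.4% and 51.2% and the Ythdc1 controls at 49.4% and 49.9%, the lower of these within the Mettl3 KO range of 48.2% to 49.4%.

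Runs of 12 or more purines, as printed in capitals above, went the other way. Such a run stood in 110 of 486 KO-specific windows, or 22.6% (Wilson 95% interval 19.1 to 26.6), and in 149 of 1748 cKO-specific windows, or 8.52% (7.30 to 9.93). Regions in all 6 libraries had it in 13.9%, all exonic regions in 12.8%, and shifted KO-specific and cKO-specific windows in 9.66% and 7.34%. The order was the same within coding exons, with 20.4% of KO-specific and 7.28% of cKO-specific windows, and within 3' UTRs, with 21.7% and 7.91%. Per library, 14.8% and 14.6% of exonic windows in KO1, 14.6% and 14.7% in KO2, and 12.2% and 12.4% in the cKO held a run. Here the KO1 and KO2 libraries lay together, and the difference of 2.38 percentage points had the smallest possible exact permutation p of 0.0667 (0.0889 adjusted over 4 measures). The Mettl3 controls stood at 12.8% and 12.9% and the Ythdc1 controls at 12.3% and 12.5%, all below the 4 Mettl3 KO libraries. The run was chosen as a measure after the strongest windows had been seen.

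**Figure D4:**
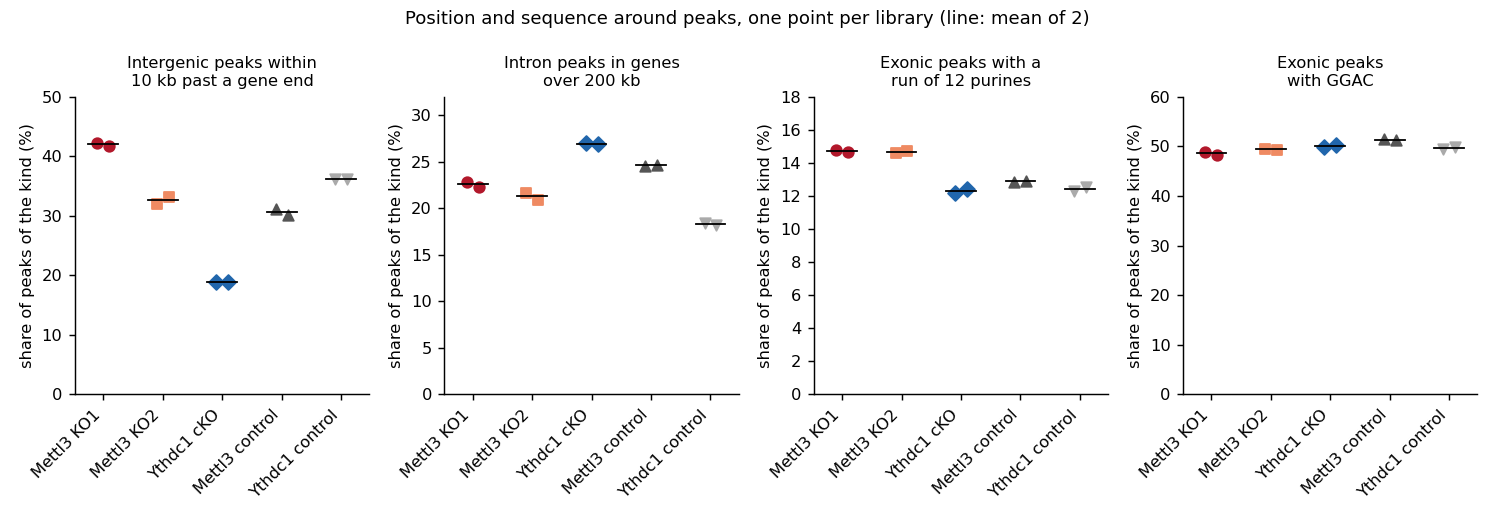
Share of intergenic peaks within 10 kb past a gene end, of intron peaks in genes over 200 kb, of exonic windows with a run of 12 purines and of exonic windows with GGAC (percent, y axes), with 1 point per library and the mean of each group as a line. The cKO libraries are lowest in the leftmost panel, at 18.9% and 18.8%, and the 4 Mettl3 KO libraries are highest in the purine panel, at 14.6% to 14.8%.

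The strongest KO-specific regions lay in genes of many kinds, mostly in introns. Folds are the authors' values within each library's own list and have no common scale between libraries. Arhgap30, a GTPase-activating protein gene, had the strongest, on the plus strand of a coding exon (chromosome 1, 171407729 to 171408589). Its enrichment was 17.1-fold and 15.0-fold in KO1 and 16.6-fold and 17.2-fold in KO2, with no peak in the cKO, 11.4-fold and 10.7-fold in the Mettl3 controls and 5.65-fold and 5.33-fold in the Ythdc1 controls. All 8 libraries outside the cKO thus held this peak. The pseudogene Gm7468 (chromosome 6, 142970666 to 142970923, minus strand) had 15.1-fold and 14.9-fold in KO1 and 17.5-fold and 18.9-fold in KO2, no peak in the cKO, 7.86-fold and 8.90-fold in the Mettl3 controls and none in the Ythdc1 controls. An intron of Prmt8, an arginine methyltransferase gene (chromosome 6, 127724309 to 127724781, minus strand), had 16.5-fold and 14.5-fold in KO1 and 23.1-fold and 15.8-fold in KO2. It had no peak in the cKO and peaks in all 4 controls, of 3.40-fold to 11.8-fold.

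Introns of Trak1, which encodes an adaptor for mitochondrial transport, and of Bckdhb, a subunit of the branched-chain ketoacid dehydrogenase, came next. Trak1 (chromosome 9, 121390397 to 121390880, plus strand) had 13.9-fold to 17.8-fold in the 4 Mettl3 KO libraries and 9.05-fold and 11.8-fold in the Mettl3 controls. Bckdhb (chromosome 9, 84024482 to 84025090, plus strand) had 13.0-fold to 14.7-fold in the Mettl3 KO and 8.25-fold and 9.40-fold in the Mettl3 controls. Neither had a peak in the cKO or in a Ythdc1 control. Introns of Gm26848, of Tyw1, a tRNA modification enzyme gene, and of Gm26573 had 10.7-fold to 17.04-fold in the Mettl3 KO libraries. These 8 regions all had peaks in both Mettl3 controls. The 3 strongest intergenic KO-specific regions, on chromosomes 12, 2 and 16, also had peaks in both Mettl3 controls and in no Ythdc1 control, with 10.8-fold to 16.8-fold in the Mettl3 KO.

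The 10 strongest cKO-specific regions on genes were 4 antisense regions, 4 in introns and 2 in exons, and the 3 strongest intergenic regions ranked above all of them but 1. A region antisense to Tshr, the thyrotropin receptor gene (chromosome 12, 91473042 to 91474862, minus strand), had no peak in any Mettl3 KO library and 18.3-fold and 19.02-fold enrichment in the cKO. It had none in the Mettl3 controls and 15.7-fold and 13.3-fold in the Ythdc1 controls. A region antisense to Itpr1, an inositol trisphosphate receptor gene (chromosome 6, 108271955 to 108273658, minus strand), had no peak in the Mettl3 KO, 17.3-fold and 18.2-fold in the cKO, 3.53-fold in 1 Mettl3 control and 14.1-fold and 14.7-fold in the Ythdc1 controls. Both are wide regions that the Ythdc1 line carried with or without the reader. A region antisense to Cacna2d1, a calcium channel subunit gene, also had peaks in both Ythdc1 controls and in 1 Mettl3 control. A region antisense to Havcr1, a cell surface receptor gene, had no peak in the Mettl3 KO, 15.2-fold and 17.3-fold in the cKO, and peaks in all 4 controls of 5.79-fold to 7.90-fold.

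An intron of the glypican gene Gpc5 (chromosome 14, 115207572 to 115208486, plus strand) had no peak in the Mettl3 KO, 17.8-fold and 16.7-fold in the cKO, none in the Mettl3 controls and 3.00-fold in 1 Ythdc1 control. Introns of Phldb2 and of the sodium leak channel gene Nalcn and a coding exon of Pudp, a pseudouridine phosphatase gene, had 13.9-fold to 16.6-fold in the cKO and peaks in all 4 controls of 2.88-fold to 7.24-fold. Among the 10 lists, these 3 and the Havcr1 region had no peak in the 4 Mettl3 KO libraries alone. An exon of Gm4835 had 15.8-fold and 18.3-fold in the cKO, 4.07-fold in 1 Mettl3 control and 3.46-fold and 4.43-fold in the Ythdc1 controls. Like Gm7468 it is a processed pseudogene, so its reads may belong to near-identical copies elsewhere. Gm26870 had a region in an intron (chromosome 9, 3000890 to 3001567, minus strand) with 15.5-fold and 13.9-fold in the cKO and no peak in any of the 8 other libraries. The lists do not say whether its reads map to this place alone. The strongest cKO-specific intergenic regions lay on chromosome X (39667024 to 39667502, minus strand), at 18.3-fold and 18.2-fold, and on the plus strand of chromosome 6 (19146005 to 19147390), where the cKO had 18.3-fold and 18.1-fold. Those 2 had peaks in all 4 controls, of 5.29-fold to 7.19-fold. At a strength of 90 or more stood 26 KO-specific and 238 cKO-specific regions, and the median strength was 27.2 and 38.5, a lowest value over 4 libraries in the KO-specific and over 2 in the cKO-specific set.

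On the gene side, 13467 genes had a region on their strand. Of these 2240 (16.6%) had a KO-specific region and 2600 (19.3%) a cKO-specific region. This order turned with the 30000 best peaks of each library, at 1923 and 1821 genes, and with the KO2 libraries alone, at 4074 and 3256. Both kinds were found on 396 genes, which is 17.7% of the genes with a KO-specific and 15.2% of those with a cKO-specific region. A region in all 6 libraries was also found on 1556 of the 2240 genes and on 1351 of the 2600, and 174 genes had KO-specific regions only and 549 cKO-specific regions only. Most genes had 1 specific region, 1658 in the KO-specific and 1887 in the cKO-specific set, while 5 or more were found on 43 and 97 genes. Protein-coding genes were 93.5% of the genes with a KO-specific and 84.96% of those with a cKO-specific region, and long non-coding RNA genes 3.57% and 9.81%. Over all 13467 genes they were 85.6% and 7.06%, so in protein-coding genes the KO-specific set stood apart from that share and the cKO-specific set was near it.

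Genes with the most KO-specific regions carried most of them in introns. Tns1, which encodes the focal adhesion protein tensin, had 11 KO-specific regions of 25, all in introns and 5 of them with peaks in both Mettl3 controls, and no cKO-specific region. Tenm3, a teneurin gene, had 10 of 56 KO-specific and 1 cKO-specific, and all 10 had peaks in both Mettl3 controls. The cell adhesion gene Ncam1 had 8 KO-specific regions of 37, and St8sia1, the GD3 ganglioside synthase gene, 7 of 14. Gpc3, a glypican gene, Iqsec1, a regulator of Arf GTPases, the kinase gene Hipk2 and the transcription factor gene Mitf had 6 each, and none of these 6 genes from Ncam1 on had a cKO-specific region. The strongest of them was an intron region of Gpc3 (chromosome X, 52597704 to 52597983, minus strand), with 11.6-fold, 14.4-fold, 10.3-fold and 12.1-fold in the KO1 and KO2 libraries, no peak in the cKO, and 8.95-fold and 6.91-fold in the Mettl3 controls.

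Genes with the most cKO-specific regions often had few others. Rgs20, a regulator of G protein signalling, had no KO-specific region and 26 cKO-specific ones of 28, 24 of them in introns and 22 without a peak in any control. Its strongest (chromosome 1, 5056829 to 5057429, minus strand) had 9.35-fold and 10.1-fold in the cKO and no peak in the 8 other libraries. The transcription factor gene Sox6 had 18 of 25 cKO-specific, 13 of them without a control peak. Its strongest (chromosome 7, 115811796 to 115812090, minus strand) had 13.0-fold and 12.3-fold in the cKO, no peak in the Mettl3 KO or Mettl3 controls, and 6.10-fold and 3.84-fold in the Ythdc1 controls. Fhit, at a fragile site, had 17 of 48, and Pdzrn4 15 of 23, all 15 without a control peak.

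Other genes of this group carried regions that the controls also had. Syne2, which encodes the nuclear envelope protein nesprin, had 16 cKO-specific regions of 28, and 14 of them had peaks in both Ythdc1 controls. Ttn, the gene of titin, had 14 of 57, 11 of them in both Ythdc1 controls and 0 in introns. Airn, the imprinted non-coding RNA antisense to Igf2r, had 13 of 25, and Grin2a, an NMDA receptor subunit gene, 12 of 23, of which 8 had no control peak. None of these 8 genes had a KO-specific region.

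**Figure D5:**
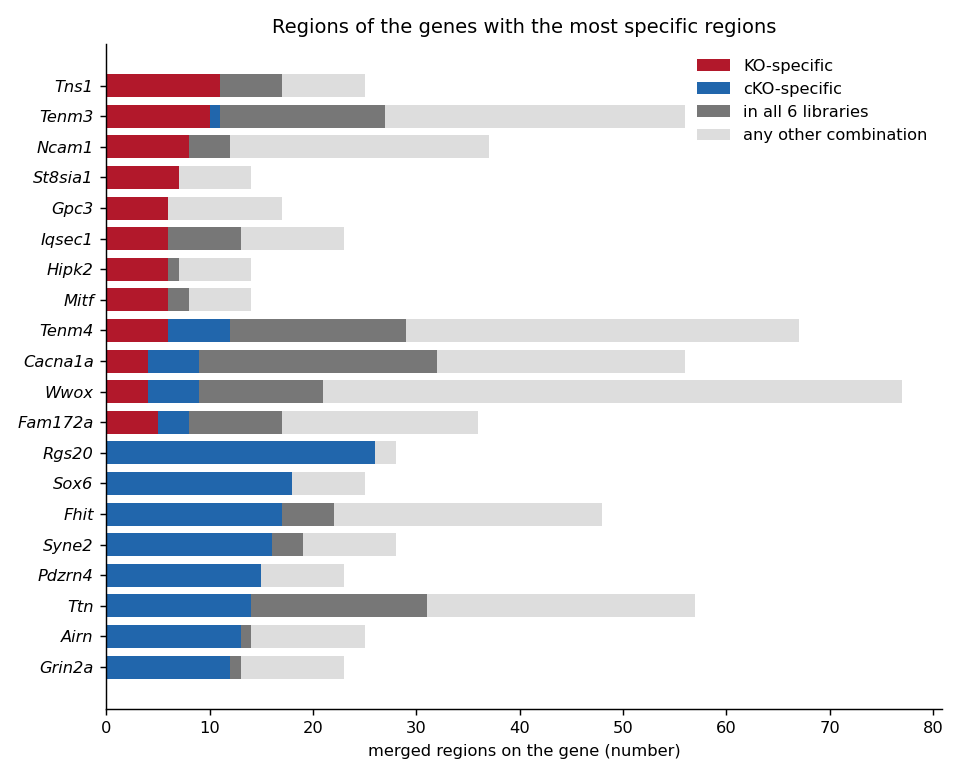
Number of merged regions (x axis) on each of 20 genes (y axis), coloured as KO-specific, cKO-specific, found in all 6 libraries or any other combination. Rgs20 shows 26 of its 28 regions as cKO-specific, and Tns1 shows 11 of its 25 as KO-specific.

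A few genes held both kinds. Tenm4, a teneurin gene, had 6 regions of each set among 67, Cacna1a, a calcium channel gene, 4 KO-specific and 5 cKO-specific among 56, Wwox, at a fragile site, 4 and 5 among 77, and Fam172a 5 and 3 among 36. In Fam172a an intron region (chromosome 13, 77952837 to 77953033, plus strand) had 7.07-fold, 7.03-fold, 7.07-fold and 7.10-fold in the KO1 and KO2 libraries and no peak in the cKO. Farther along the same intron-rich gene a wide region (chromosome 13, 78050071 to 78050832, plus strand) had no peak in the Mettl3 KO and 7.80-fold and 8.04-fold in the cKO, with peaks in all 4 controls.

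Gene lists were described against the shares over all genes with a region, 16.6% for KO-specific and 19.3% for cKO-specific regions. Very long genes stood farthest from the cKO-specific share, with a KO-specific region on 9 of 27 genes (33.3%) and a cKO-specific region on 23 of 27 (85.2%), or 24 and 112 regions. These 27 genes hold 612 regions in all, and the part of their number of regions in these shares was not tested. Pde1c, a cyclic nucleotide phosphodiesterase gene, had 8 cKO-specific regions of 15, Magi2, a synaptic scaffold gene, 11 of 17, and Lsamp, a neural adhesion gene, 10 of 17. The strongest region of Pde1c (chromosome 6, 56077568 to 56077896, minus strand) had no peak in the Mettl3 KO, 13.0-fold and 14.1-fold in the cKO and no peak in any control.

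Reader and eraser genes of m6A stood above the KO-specific share and below the cKO-specific one. Writer genes, with 1 of 9 in each set, were too few to place against these shares. Of 12 reader and eraser genes, 6 (50%) had a KO-specific region and 1 (8.33%) a cKO-specific one. Of their 85 regions 8 were KO-specific, 1 was cKO-specific and 36 were in all 6 libraries, and the part of their number of regions in these shares was not tested. The 6 were Igf2bp3, Igf2bp2 and Igf2bp1, which encode m6A-binding proteins of the cytoplasm, the demethylase gene Alkbh5, Ythdf1 and Ythdc1. Only Igf2bp3 and Alkbh5, at 59.5 and 44.5, lay above the median strength of the KO-specific set, 27.2. Ythdf1 stood at 11.7, Ythdc1 at 9.54, Igf2bp2 at 1.36 and Igf2bp1 at 1.14. An Igf2bp3 intron (chromosome 6, 49147063 to 49147445, minus strand) had 5.79-fold, 5.49-fold, 5.17-fold and 5.76-fold in the KO1 and KO2 libraries and no peak in the cKO or any control. Alkbh5 had 1 region of each kind, in introns. Of 9 writer genes only Zc3h13 had a specific region, 1 of each kind, and of the 43 regions of the 9 genes 23 were in all 6 libraries. Of 16 Polycomb genes, 5 (31.3%) had a KO-specific region, namely Pcgf6, Cbx7, Jarid2, Ezh2 and Ezh1, and 1 (6.25%) had a cKO-specific one, Kdm2b.

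Long non-coding RNAs that are imprinted or bound to chromatin stood above both shares over all genes with a region, 16.6% and 19.3%. Of 20 such genes, 5 (25%) had KO-specific regions and 7 (35%) cKO-specific ones. They held 8 and 23 of the 157 regions of the list, and Airn accounts for 13 of the 23. The list is short, and the part of its number of regions in these shares was not tested. Tbx3os1, antisense to Tbx3, had 1 KO-specific region and 4 cKO-specific ones, and Xist, the RNA that silences the X chromosome, 1 of each. The Xist region of the cKO (chromosome X, 103482083 to 103482336, minus strand) had no peak in the Mettl3 KO, 6.34-fold and 5.30-fold in the cKO, 4.51-fold and 5.97-fold in the Mettl3 controls and none in the Ythdc1 controls.

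Pluripotency genes were spread over both sets, with 5 of 25 (20%) carrying a KO-specific and 7 of 25 (28%) a cKO-specific region. All genes with a region stood at 16.6% and 19.3%. The list is short, and its distance from these shares was not tested. Lifr, the LIF receptor gene, had 2 KO-specific regions, the stronger in its 3' UTR. Nr5a2, a nuclear receptor gene, had 3 KO-specific regions and 1 cKO-specific. Utf1, a chromatin-bound factor of undifferentiated cells, had 1 region, on the plus strand of a coding exon (chromosome 7, 139944097 to 139944357), with no peak in the Mettl3 KO, 4.25-fold and 4.72-fold in the cKO, 7.65-fold and 8.82-fold in the Mettl3 controls and 8.63-fold and 9.05-fold in the Ythdc1 controls. That peak was therefore missing from the 4 Mettl3 KO lists alone. Inhbb, an inhibin and activin subunit gene, had 1 region, on the minus strand of a coding exon (chromosome 1, 119416594 to 119418048). It had 3.53-fold, 4.45-fold, 5.36-fold and 5.50-fold enrichment in the KO1 and KO2 libraries, no peak in the cKO, and 6.45-fold to 7.49-fold in the 4 controls.

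Signalling pathways were counted against the shares over all genes with a region, 16.6% for KO-specific and 19.3% for cKO-specific regions. These lists are short, so a few genes set each share, and no difference from the shares was tested. Of 26 genes of the Nodal, activin and BMP pathways, 3 (11.54%) had a KO-specific and 6 (23.1%) a cKO-specific region. The BMP target genes Id1 and Id2 and the receptor gene Tgfbr2 were among those 6. A coding exon of Tgfbr2 (chromosome 9, 116109581 to 116110208, minus strand) had no peak in the Mettl3 KO, 6.90-fold and 9.38-fold in the cKO and no peak in any control. Of 18 Wnt pathway genes, 6 (33.3%) had a KO-specific region, with Lrp5 and Lrp6, the co-receptors, and Tcf7l1, a repressor, the strongest, and 4 (22.2%) a cKO-specific one, among them Lef1 and Axin2. Of 23 MAPK feedback and immediate early genes, 2 (8.70%) had a KO-specific region, Egr1 and Spred2, and 5 (21.7%) a cKO-specific one, among them Fosl2 and the phosphatase genes Dusp4 and Dusp6.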

How the data were processed

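The tools named in the submitters' processing notes are MACS2, HISAT2 2.1.0, Trimmomatic 0.38 and CASAVA, with mm10 as the build. The version and settings of MACS2, and the use of inputs as background, are not given in the sources used here. Libraries were stranded total RNA after an m6A immunoprecipitation with the EpiMark kit, per the labels' protocols. The deposited lists hold 1 library each and give, for each peak, a display score, a fold enrichment (ratio), −log10 p- and q-values and a summit.

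Peaks were merged with Python 3.11.15 and NumPy 2.4.6. Summits were classed with GENCODE M21 by the first of 9 classes that applied, exons before introns, then antisense, promoter-proximal (within 2 kb) and intergenic. A region took the class of its highest summit, by within-list percentile. Depth is known only as the background solved from fold and p-value. Scripts were tested on simulated data. Named were the 10 strongest regions on a gene and 3 intergenic ones per set, the 8 genes with the most regions per set, 5 with both, the strongest by list and by control state, and Mettl3 and Ythdc1. Sequences shown are from the strongest coding and non-coding exon regions off chromosome 18, with 3 shown per set where 2 were planned. Members and lists were chosen with earlier results of these data known. Alternatives covered q, list length, overlap, strand, gap, line and each library. Inputs were not analysed here, and a few regions and genes that the naming rule gives are not reported here.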

Additional observations from a re-analysis of the deposited data

Results flagged for a closer look

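In 3 measures both KO1 libraries stood on one side of the cKO mean and both KO2 libraries on the other, and these differences were not tested. For 3' UTR peaks the share differed from the cKO by -0.819 percentage points in KO1 and 0.918 in KO2. For coding exon peaks it differed by -0.298 in KO1 and 1.08 in KO2. The fold enrichment of the kit's control RNA, which was added to every sample, differed by -1.98 in KO1 and 8.52 in KO2, with 12.5-fold and 12.3-fold in KO1, 22.5-fold and 23.3-fold in KO2, and 14.6-fold and 14.1-fold in the cKO.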

How the results depend on the processing

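Among the results below, the Mettl3 KO lists stayed poorer in intergenic and richer in intron peaks and shorter in covered length than the cKO lists under every alternative run. With a stricter threshold (−log10 q of at least 5) no result moved. With the 30000 best peaks per library the cKO-specific regions numbered 6938, introns held 66.1% of the KO-specific set, both Mettl3 controls had a peak in 54.5% of it, and 54.3% of the cKO-specific regions had no control peak. With 50% of a region covered, the intergenic share of the cKO-specific set was 41.5%, the share of KO-specific regions in both Mettl3 controls 58.9%, and that of cKO-specific regions in no control 54.0%. Merged without strand the intergenic cKO-specific share was 45.7%. Above percentile 80 of strength within each set, introns held 62.5% of the KO-specific and intergenic regions 53.5% of the cKO-specific set. With a window of 100 nt GGAC stood at 60.1% of KO-specific and 73.6% of cKO-specific summits. With DRACH in place of GGAC, within 50 nt, the shares were 85.4% and 91.2%.

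With KO1 alone there were 8733 KO-specific regions on 3926 genes, 74.9% in introns and 40.4% in both Mettl3 controls, and cKO-specific regions on 3927 genes, 40.3% intergenic and 40.5% in no control. With KO2 alone there were 8924 KO-specific regions on 4074 genes, 50.2% in introns and 39.7% in both Mettl3 controls, and cKO-specific regions 39.8% intergenic and 47.5% in no control. These alternatives ask for fewer libraries, and more regions qualify.

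Leaving out each of the 6 libraries in turn gave 4607 to 4977 KO-specific regions (65.3% to 70.0% in introns, 55.6% to 64.5% in both Mettl3 controls, 2524 to 2687 genes) and 10948 to 14173 cKO-specific ones (39.9% to 43.4% intergenic, 49.6% to 55.7% in no control, 2791 to 3674 genes). It gave differences, Mettl3 KO minus cKO, of -10.95 to -9.35 points for intergenic peaks, 11.2 to 14.8 for intron peaks, -3945 to -2766 peaks and -4.77 to -4.26 Mb. With the replicate number as a block, 9 arrangements remain and the intergenic difference of -10.1 points reached the smallest possible exact p of 0.111. Samples with the same number deviated together with a correlation of at most 0.0114. With 2 libraries per group this cannot decide whether the numbers pair the libraries. Of the 71 named KO-specific and 66 named cKO-specific regions, 56 and 55 or more kept their set under each alternative. The lists hold no read totals, so a missing peak is not absence of the mark.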

Other observations

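The remaining gene lists are given here by their counts. Over all genes with a region the shares were 16.6% for KO-specific and 19.3% for cKO-specific regions. The lists are short, and their distance from these shares was not tested. Early lineage factors had KO-specific regions on 2 of 19 genes, Lama1 and Pou3f1, and cKO-specific ones on 5, Sox1, Fgf5, Gata4, Lama1 and Zeb2, of which Fgf5 and Gata4 had a peak in no other library. Of 10 genes of the longer fibroblast list, Sparc had a KO-specific region and Ccdc80, Pdgfrb and Pdgfra had cKO-specific ones. Of 24 active chromatin and remodeler genes, 6 had a KO-specific and 6 a cKO-specific region, with Arid1b, Nsd1 and Nsd2 in both groups. Of 18 H3K9 silencing genes, 2 had a KO-specific region, Cbx1 and Cbx5, and 2 others a cKO-specific one, Setdb1 and Daxx. Nuclear RNA decay genes had a KO-specific region on 2 of 18, Ncbp1 and Zfc3h1, and a cKO-specific one on 1, Zc3h18. Splicing factors had 2 and 1 of 25, chaperones 2 and 2 of 17, and ribosomal protein genes 1 and 0 of 17. None of 14 genes of the 2-cell-like state had a region of either set, but these genes held only 24 regions in all.

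Chromosome X held 4.32% (Wilson 95% interval 3.73 to 5.01) of the KO-specific regions, 6.80% (6.33 to 7.29) of the cKO-specific regions, 2.67% of those in all 6 libraries and 3.91% of all merged regions. Chromosome 11 held 7.58% of the KO-specific regions, 3.93% of the cKO-specific regions, 7.12% of those in all 6 libraries and 6.84% of all merged regions, so the KO-specific share was near the last of these. Regions found in the Mettl3 KO and the Ythdc1 controls but in neither the cKO nor a Mettl3 control numbered 135, or 3.43% of the KO-specific set. Of these 21.5% lay in coding exons, near the 24.5% of all merged regions with peaks in both Ythdc1 controls and no Mettl3 control. The 3 strongest of these lay in the pseudogene Gpx4-ps2, in an intron of Pin4 and in the 5' UTR of Pfdn6, with 6.09-fold to 12.7-fold enrichment in the Mettl3 KO libraries and 5.60-fold to 9.38-fold in the Ythdc1 controls. Purine runs stood in 14 of the 42 exonic windows of these 135 regions, or 33.3% (Wilson 95% interval 21.01 to 48.4). The share was 22.6% over all KO-specific windows and 34.9% (15 of 43) in KO-specific windows with no control peak.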
